A study of Mus musculus with 5 samples.

Results

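The cytosolic ribosomal protein genes encode the proteins of the ribosome that translates nuclear messenger RNA. They were taken from the expression table by symbol: Rpl or Rps followed directly by a digit, plus Rpsa, Rplp0, Rplp1 and Rplp2. Processed pseudogene symbols (containing -ps, 84 rows) and the S6 kinase genes (starting Rps6k, 9 rows) were dropped. The rule found 90 genes of 17818, of which 37 carry names of the small (40S) and 53 of the large (60S) subunit. By name, 77 are ribosomal proteins, 11 are paralogues or retrogene copies such as Rpl3l and Rps27rt, and 2 (Rps19bp1 and Rps23rg1) were classed as not ribosomal proteins. Among the copies, Rpl6l, Rps3a2 and Rps3a3 are annotated as processed pseudogenes but stayed in, since their symbols lack -ps. The filter of at least 1 CPM (the count scaled to the library total) in at least 2 libraries was passed by 86 of the 90, against 12734 of all genes. Rpl24, Rpl36al, Rpl39l and Rps23rg1 did not pass it.

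Hearts of male mice of a bone marrow transplantation model were sequenced as messenger RNA. There were 3 groups: a WT (wild-type) vector control with 1 library, Tet2+/- with vector in 2 libraries, and Tet2+/- with oridonin in 2 libraries. Oridonin is a plant diterpenoid. The series text puts sampling 12 months after the transplant and the treatment at 2 months, and all groups share the transplant label. The sample titles end in 1 month or 2 month, whereas the time label gives 2 months for every sample. The number in the title was used as a replicate number, so if it marks treatment time, the differences between replicates given here are differences in time as well. Tet2 encodes a dioxygenase that oxidises methylated cytosine, and losing a copy in blood stem cells is a model of clonal hematopoiesis. The labels do not say whether the donor marrow, the recipient or both carried the Tet2+/- genotype, nor whether the libraries came from separate animals, so the p-values reflect spread among these libraries alone, which may be technical. The WT group is 1 library with no replicate of its own, and its test borrows the spread of the Tet2 groups. Its deposited column is itself a mix that was not undone, so WT values here are approximate.

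Ribosomes hold nearly all of these proteins in equal number, and their genes are transcribed together at high levels in nearly all cells. Many of their messenger RNAs begin at a C inside a run of pyrimidines, the TOP motif, through which mTORC1 controls their translation. Heart and skeletal muscle additionally use Rpl3l, a muscle paralogue of Rpl3, the core protein near the peptidyl transferase centre.

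Start sites are shown for 5 members with a long pyrimidine run there and for 2, Rpsa and Rpl3l, without one. RefSeq promoters (GRCm38.p6, the build named mm10 in the submitters' processing notes) were matched for 66 of the 90 members. Each line gives 60 bases, from 40 before to 20 after the annotated start, 5′ to 3′ on the gene's strand, with the longest pyrimidine run near the start in capitals.
Rps6: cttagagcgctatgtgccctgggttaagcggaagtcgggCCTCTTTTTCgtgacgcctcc
Rpl28: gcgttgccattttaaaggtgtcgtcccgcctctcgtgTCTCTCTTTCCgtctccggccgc
Rpl35: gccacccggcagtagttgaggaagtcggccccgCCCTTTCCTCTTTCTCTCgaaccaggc
Rpl38: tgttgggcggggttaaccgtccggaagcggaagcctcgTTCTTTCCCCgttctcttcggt
Rplp2: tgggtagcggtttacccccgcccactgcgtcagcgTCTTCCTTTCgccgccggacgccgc
Rpsa: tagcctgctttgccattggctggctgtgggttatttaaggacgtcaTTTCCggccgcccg
Rpl3l: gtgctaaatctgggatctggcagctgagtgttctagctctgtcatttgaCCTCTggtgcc
These windows lie at chr4:86857348-86857407 (Rps6, minus strand), chr7:4792925-4792984 (Rpl28, plus), chr2:39005112-39005171 (Rpl35, minus), chr11:114668540-114668599 (Rpl38, plus), chr7:141447611-141447670 (Rplp2, plus), chr9:120127726-120127785 (Rpsa, plus) and chr17:24727786-24727845 (Rpl3l, plus). In Rps6, Rpl28, Rpl35, Rpl38 and Rplp2 the run spans the start and is 10 to 18 bases long. The longest run near the start of Rpsa and of Rpl3l is 5 bases and lies after it.

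A run of at least 8 pyrimidines within 20 bases of the start was present in 31 of 66 members (47.0%). The share was 18.4% of all 27025 genes with a RefSeq promoter. A gene was counted if any of its promoters had the match. Over the whole 300 bases, on either strand, the ETS core CCGGAAG was found in 39.4% of members and 9.93% of all these genes. The YY1 core AAGATGG was found in 15.2% and 7.28%. The TATA box letters TATAAA were found in 10.6% of members and 15.7% of all these genes, and the E-box CACGTG in 9.09% and 8.09%. A match is a description of the letters only.

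Total counts were 15002794 for WT, 15535778 and 15334618 for the vector pair, and 14626806 and 14574823 for the oridonin pair. The members' share of counts was 1.32% for WT, 1.54% and 1.93% for Tet2 vector 1 and 2, and 1.55% and 1.40% for oridonin 1 and 2. The 95% Wilson intervals reach at most 0.0069 percentage points from these values and cover counting error only. Tet2 vector 2 stood above the other 4 libraries, and Tet2 vector 1 and oridonin 1 were level. Mitochondrial genome transcripts made up 23.6% of the WT library and 26.8% to 30.2% of the Tet2 libraries. Without them, the members' share was 1.72% for WT, 2.11% and 2.75% for the vector pair, and 2.22% and 1.94% for the oridonin pair.

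Cardiomyocyte markers were abundant in every library, with sums between 41731 and 51661 CPM. Atrial markers (6 genes, 3 of them past the filter) summed to 1088 CPM in Tet2 vector 1 and to 17.8 to 91.9 CPM in the other 4 libraries. Tet2 vector 1 therefore stands apart in its atrial transcripts, and differences that rest on it are also given without it. Those values rest on Tet2 vector 2, which was above Tet2 vector 1 for 82 of 86 tested ribosomal protein genes. Leaving out Tet2 vector 1 thus raised most of their differences from WT. Their median against WT was 0.20 in Tet2 vector 1 and 0.55 in Tet2 vector 2. All 17818 genes with values had a count in some library, so no marker among them could be at 0 throughout. Of the 6 red cell markers and of the 6 nerve and glia markers, 5 each had values. In bulk tissue, fewer cells of a type and less RNA per cell cannot be told apart.

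In Tet2 vector hearts most ribosomal protein genes were measured above the WT heart. The median difference over the 86 members was 0.38 on the log2 scale (1.30-fold), with quartiles at 0.29 and 0.48, where the median of all genes tested was 0.005. By library, the median difference from WT was 0.20 in Tet2 vector 1 and 0.55 in Tet2 vector 2, against 0.07 and -0.05 for all genes. The difference was above 0 for 81 of 86 members, against 50.4% of all genes tested. It was below 0 for 5 (Rpl3l, Rps10, Rps29, Rpl6l and Rps28), against 49.6%. Both Tet2 vector libraries lay above WT for 73 members (84.9%), against 35.4% of all genes, and no member had both below, against 32.3%.

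Markers of other cell types differed in the same comparison. Of 8 fibroblast markers, 5 were higher at an unadjusted p under 0.05 and the median was 0.80, and of 8 macrophage markers 3 were higher and the median was 0.58. Of 4 tested red cell markers 3 were lower and the median was -0.99. For all genes the shares were 5.06% higher and 4.53% lower. The marker medians were 0.69, 0.21 and -1.38 without Tet2 vector 1, and 0.88, 0.91 and -0.60 without Tet2 vector 2. Sums of fibroblast markers were 996 CPM in WT and 1539 to 1598 CPM with vector, those of macrophage markers 369 and 417 to 657, and those of red cell markers 368 and 147 to 248. Their part in the members' difference was not tested.

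No single gene passed the threshold. Limma called 0 of 86 members at an FDR of 0.05, and 0% of all genes tested, with the lowest adjusted p among members at 0.358 (Rpl3). At an unadjusted p under 0.05 it had 11 members higher, where all genes gave 5.06%, and 0 lower, where all genes gave 4.53%. With voom on recovered counts the figures were 0 past the FDR and 9 higher at an unadjusted p under 0.05 (3.79% of all genes). Without Tet2 vector 1 the median was 0.55, and without Tet2 vector 2 it was 0.20. Each of these fits sets 1 vector library against 1 WT library, so only the medians are given.

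**Figure D1:**
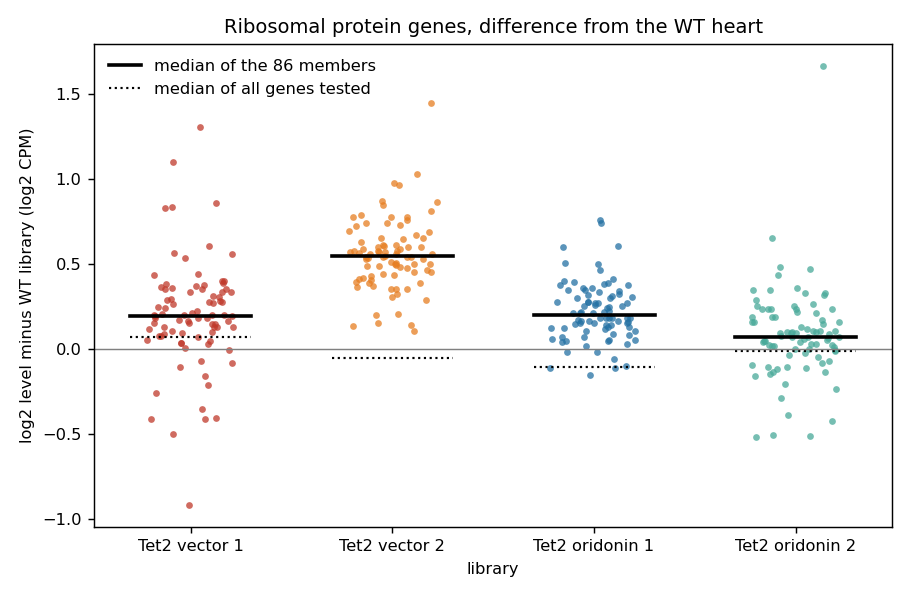
Each point is 1 of the 86 tested ribosomal protein genes, plotted as its log2 CPM minus that of the WT library (y axis) in each of the 4 Tet2 libraries (x axis). Solid bars are member medians (0.20, 0.55, 0.20 and 0.07 from left to right) and dotted bars are medians of all 12734 genes tested. The points of Tet2 vector 2 all lie above 0.

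Most members shared their highest library, and fewer shared their lowest. Tet2 vector 2 held the highest value for 77 of 86 members (89.5%), against 21.2% of all genes. WT was the lowest for 57 members (66.3%), against 24.2%, and oridonin 2 for 21 (24.4%), against 13.1%. Tet2 vector 1 was the lowest for 7 (8.14%), against 12.8%, and oridonin 1 for 1 (1.16%), against 21.98%. Tet2 vector 2 was the lowest for 0 members, against 27.96% of all genes. The members with another library on top were Rpl3, Rps27a, Rps27rt, Rpl21, Rpl3l, Rpl6l, Rpl7l1, Rps10 and Rps29. After the members' median was subtracted in each library, 54 of 86 stayed within 0.25 log2 units of it in all 4 Tet2 libraries. That median comes from the same members, and the share over all genes was not computed, so the count is a description only.

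The 2 Tet2 vector libraries differed from each other almost as much as Tet2 vector did from WT (median 0.38). The gap was larger than the median differences of oridonin from vector (-0.25) and from WT (0.13). Replicate 2 was above replicate 1 for 82 of 86 members, by a median of 0.34 log2 units, where 37.8% of all genes were higher in replicate 2 and their median was -0.16. The 4 members lower in replicate 2 were Rpl3, Rps27a, Rps27rt and Rpl7l1. In the oridonin pair, replicate 2 was below replicate 1 for 71 of 86 members, with a median of -0.15, where 59.7% of all genes were higher in replicate 2 and their median was 0.08. Beside this, macrophage markers summed to 657 and 417 CPM in Tet2 vector 1 and 2, red cell markers to 248 and 147, and fibroblast markers to 1539 and 1598. Their part in the replicate difference was not tested.

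The subunits had medians of the same sign. The 36 tested 40S members had a median Tet2 vector minus WT difference of 0.42, with 33 above 0, and the 50 tested 60S members 0.33, with 48 above 0. Against Tet2 vector, oridonin hearts had medians of -0.25 for 40S and -0.24 for 60S members. Of all genes, 50.4% were above 0 against WT. The 40S and 60S medians without Tet2 vector 1 were 0.58 and 0.53 against WT, and oridonin against vector gave -0.46 and -0.40. These rest on Tet2 vector 2, the highest library for 32 of 36 tested 40S and 45 of 50 tested 60S members. The difference between subunits was not tested.

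In the small subunit, Rps6, the substrate of the S6 kinases, measured 277 CPM in WT against 332 and 414 with Tet2 vector and 321 and 289 with oridonin. Both vector libraries lay above the other 3. Rpsa, which sits at the head of the 40S subunit and also serves as a laminin receptor, measured 355 CPM in the WT heart, 541 and 609 in the vector pair and 539 and 496 in the oridonin pair. All 4 Tet2 libraries were above WT, and the log2 difference of Tet2 vector from WT was 0.69 (SE 0.19, limma adjusted p = 0.417), or 0.78 without Tet2 vector 1. Oridonin against WT gave 0.54 (SE 0.19, limma adjusted p = 0.776).

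Rps27a encodes a fusion of ubiquitin with the 40S protein eS31. It measured 41.6 CPM in WT, 103 and 75.8 under Tet2 vector, and 42.1 and 46.5 under oridonin. The vector libraries stood clear of the other 3, which were near each other. The log2 difference was 1.09 for Tet2 vector against WT (SE 0.26, limma adjusted p = 0.377) and -0.996 for oridonin against vector (SE 0.21, limma unadjusted p = 0.00332, adjusted p = 0.9999). They were 0.87 and -0.78 without Tet2 vector 1. Rps27a overlaps Clhc1 on the opposite strand (chr11:29545846-29548109), and 28.0% of its transcript's stretches of 50 bases occur in no other gene.

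Rps13 measured 100 CPM in WT against 129 and 197 with Tet2 vector and 109 and 107 with oridonin. Tet2 vector 2 was the highest by far, and the vector to WT difference was 0.67 (SE 0.29, limma adjusted p = 0.533), or 0.98 without Tet2 vector 1. Without Tet2 vector 2 the difference was 0.36. Rps19, the gene most often mutated in Diamond-Blackfan anemia, measured 106 CPM in the WT heart, 123 and 184 in the vector pair and 136 and 112 in the oridonin pair. Tet2 vector 2 was highest and WT lowest. Rps29, a zinc-binding protein of the 40S head, ran another way, with 44.6 CPM in WT, 33.6 and 49.0 under Tet2 vector, and 49.2 and 52.5 under oridonin, so both oridonin libraries lay just above both vector libraries.

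In the large subunit, Rpl3 had the smallest p of all members against WT. It measured 125 CPM in WT against 268 and 225 with Tet2 vector and 177 and 159 with oridonin. The 3 groups did not overlap. The log2 difference was 0.97 for Tet2 vector against WT (SE 0.21, limma adjusted p = 0.358) and -0.55 for oridonin against vector (SE 0.17, limma unadjusted p = 0.0191, adjusted p = 0.9999). Without Tet2 vector 1 these were 0.85 and -0.42. Rpl3 lies at chr15:80077791-80091868, and 14.4% of its stretches of 50 bases occur in no other gene, with 81% shared with its pseudogene copy Rpl3-ps1. The Rpl3-ps1 row measured 12.1 CPM in WT, 23.5 and 33.1 with vector, and 16.7 and 21.1 with oridonin, so the order of the groups was also that of Rpl3, and how counts were split between the rows is uncertain.

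Rpl3l, the muscle paralogue, measured 233 CPM in the WT heart, 165 and 251 in the vector pair and 261 and 244 in the oridonin pair. It was lowest in Tet2 vector 1, the library with the highest Rpl3, and all its transcript stretches are unique. Of the counts of the pair, Rpl3l held 65.1% in WT (95% Wilson interval 63.8% to 66.3%), 38.0% and 52.7% with vector, and 59.6% and 60.5% with oridonin. The vector libraries were below the other 3, and their intervals did not overlap each other. Rpl3l against WT in Tet2 vector was -0.20 (SE 0.28, limma adjusted p = 0.849), and without Tet2 vector 1 it was 0.10.

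**Figure D2:**
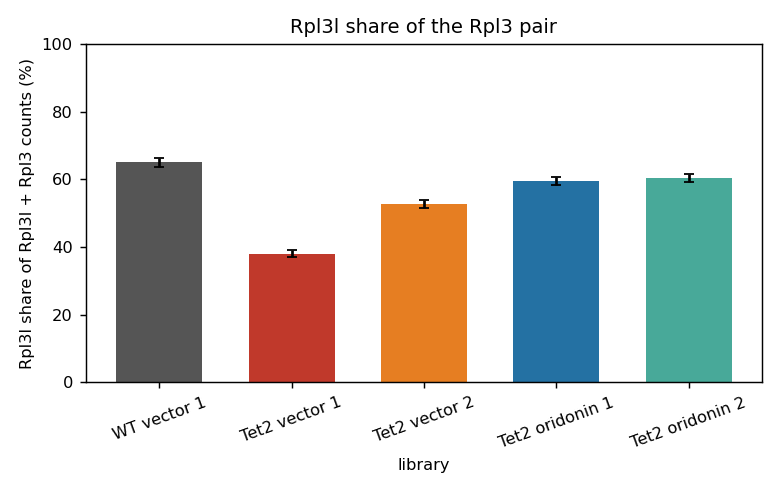
Bars give the share of Rpl3l in the summed counts of Rpl3l and Rpl3 (percent, y axis from 0) in each library (x axis), with 95% Wilson intervals for counting error. The share was 65.1% in WT, 38.0% and 52.7% under Tet2 vector, and 59.6% and 60.5% under oridonin.

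Rpl23a, a protein at the exit of the ribosomal tunnel, measured 85.4 CPM in WT against 152 and 175 with Tet2 vector and 130 and 107 with oridonin. WT was the lowest and the vector pair the highest, with a log2 difference of 0.93 (SE 0.23, limma adjusted p = 0.379) against WT, or 1.03 without Tet2 vector 1. Of its stretches of 50 bases, 14.3% occur in no other gene and 72% are shared with Rpl23a-ps3. The Rpl23a-ps3 row measured 19.7 CPM in WT, 34.8 and 40.6 with vector, and 16.3 and 19.1 with oridonin. How counts were split between the rows is uncertain. Rpl30, which lies at the contact between the subunits, measured 86.7 CPM in WT, 129 and 158 with vector and 120 in both oridonin libraries, and its difference from WT was 0.72 (SE 0.22, limma adjusted p = 0.456), or 0.87 without Tet2 vector 1. Others at an unadjusted p under 0.05 included Rps3a1, Rps27l, Rpl12, Rpl9 and Rps4x, each higher in Tet2 vector than WT by 0.48 to 0.61 log2 units, and by 0.56 to 0.78 without Tet2 vector 1.

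Rpl5 and Rpl11, which with 5S RNA bind the p53 regulator Mdm2, were both highest in Tet2 vector 2 and lowest in WT. Rpl5 measured 263 CPM in the WT heart, 343 and 354 in the vector pair and 269 and 283 in the oridonin pair. Rpl11 measured 170 CPM in WT, 186 and 248 under Tet2 vector, and 211 and 190 under oridonin. For Rpl5 the vector pair lay above the other 3, and for Rpl11 it overlapped them. Rplp0, the base of the stalk that recruits elongation factors, measured 561 CPM in WT against 638 and 724 with Tet2 vector and 669 and 604 with oridonin. Its oridonin libraries overlapped the vector libraries.

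The other stalk proteins, Rplp1 and Rplp2, bind the translational GTPases. Rplp1 measured 254 CPM in WT, 307 and 424 with vector, and 332 and 270 with oridonin. Rplp2 measured 103 CPM in WT, 106 and 158 with vector, and 136 and 105 with oridonin. In both genes oridonin 1 lay between the vector libraries.

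Rps4x, the X-linked 40S protein, measured 299 CPM in WT, 393 and 440 with vector, and 339 and 304 with oridonin. Its vector libraries were above the other 3. Rpl10, which joins the 60S subunit last and shapes its catalytic centre, measured 226 CPM in WT, 252 and 317 with vector, and 243 and 212 with oridonin. Its vector libraries were also the highest, and oridonin 2 was the lowest. Rpl38, known for its part in translating Hox messages in the embryo, measured 24.6 CPM in WT, 29.1 and 36.3 with vector, and 29.1 and 29.3 with oridonin. The oridonin pair was level with Tet2 vector 1.

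Some members varied more between replicates than between groups. Rpl41 measured 173 CPM in WT, 179 and 262 with vector, and 209 and 121 with oridonin, a gap of 0.79 log2 units within the oridonin pair. Rps28 measured 52.0 CPM in WT, 39.3 and 63.5 with vector, and 46.8 and 36.7 with oridonin. Its vector libraries lay on either side of WT. Rps10, at 0.547 to 1.196 CPM over the libraries, had the largest gap within the vector pair among the 86 tested members, 1.06 log2 units.

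Rpl21 had the highest log2 difference of all members in oridonin hearts. It measured 20.7 CPM in the WT heart, 20.8 and 25.7 in the vector pair and 35.2 and 65.8 in the oridonin pair. Both oridonin libraries were above all others, but they differed from each other by 0.90 log2 units. The log2 difference from vector was 1.06 (SE 0.33, limma unadjusted p = 0.0181, adjusted p = 0.9999), or 0.91 without Tet2 vector 1. Rpl21 lies at chr5:146832890-146837032 and shares at least 1 stretch of 50 bases with 82 other genes, while 73.8% of its stretches occur in no other gene. The Rpl21-ps15 row measured 32.6 CPM in WT, 40.9 and 53.3 with vector, and 40.03 and 30.5 with oridonin. Its log2 difference of oridonin from vector was -0.42, and that of the Rpl21-ps8 row was -0.99, both opposite in sign to Rpl21. Whether the split of counts between these rows shaped the Rpl21 difference was not tested.

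**Figure D3:**
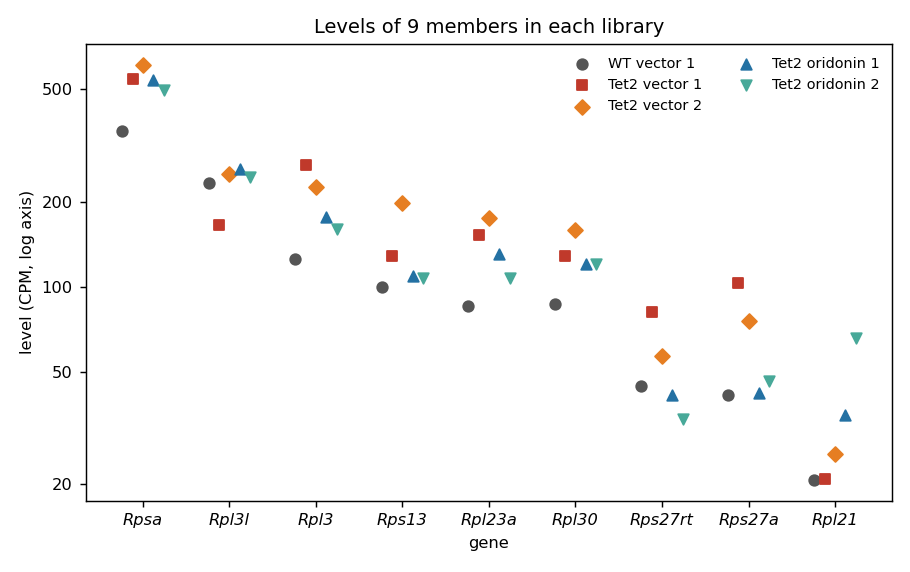
Levels (CPM, log axis) of 9 members (x axis) in each of the 5 libraries, 1 symbol per library. Rps27a and Rps27rt have both Tet2 vector symbols above the other 3, Rpl21 has both oridonin symbols on top, and Rpl3l has Tet2 vector 1 lowest at 165 CPM.

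Oridonin and vector hearts of the Tet2+/- label were compared next. This comparison shares the Tet2 vector libraries with the one against WT. The median member difference was -0.25 on the log2 scale (0.842-fold), against -0.05 for all genes, and 81 of 86 members were below 0, against 59.8% of all genes. The other 5 were above 0, against 40.2%. Both oridonin libraries lay below both vector libraries for 39 members (45.3%), against 17.8% of all genes. The reverse held for Rpl21 and Rps29, which makes 2 members (2.33%), against 8.37%.

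Limma called 0 of 86 members and 0% of all genes tested at an FDR of 0.05. At an unadjusted p under 0.05 it had 4 members lower (Rps27a, Rps27rt, Rpl3 and Rpl23a), where all genes gave 1.93%, and 1 higher (Rpl21), where all genes gave 0.668%. With voom the numbers of members were also 4 and 1 (1.87% and 0.668% of all genes). Without Tet2 vector 1 the median was -0.41, without Tet2 vector 2 it was -0.07, and without oridonin 2 it was -0.16. Each of these fits leaves 1 library in a group, so only the medians are given. Of the fibroblast markers, 8 of 8 were lower at an unadjusted p under 0.05 (all genes 1.93%). Their sums were 1539 and 1598 CPM in vector and 844 and 874 in oridonin libraries (996 in WT). Other marker lists differed too. Red cell markers were above 0 for 4 of 4 tested (median 0.86), macrophage markers below 0 for 7 of 8 (-0.31). Cardiomyocyte markers were above 0 for 8 of 9 (0.24) and endothelial markers for 6 of 7 (0.26). Without Tet2 vector 1 these marker medians were, in that order, 1.31, -0.03, 0.14 and 0.25. Their part in the members' difference was not tested.

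Oridonin hearts against WT gave a median of 0.13 (-0.06 for all genes), with 72 of 86 members above 0, against 43.8%, and 14 below 0, against 56.2%. Both oridonin libraries lay above WT for 60 members (69.8%), against 31.9% of all genes, and below it for 6 (41.7% of all genes): Rpl22l1, Rpl37, Rps12, Rps27, Rps27rt and Rps28. Limma called 0 of 86 at an FDR of 0.05, and 0% of all genes tested. At an unadjusted p under 0.05, Rpl21 and Rpsa were higher (2.69% of all genes) and 0 were lower (3.53%). With voom, 2 were higher (1.83% of all genes) and 0 passed the FDR.

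Paralogue pairs other than Rpl3 were compared by their share of counts. Rpl22l1 held 10.7% of the pair with Rpl22 in WT, 10.5% and 10.3% under Tet2 vector, and 9.67% and 8.62% under oridonin. The WT and vector values were within each other's Wilson intervals. Rps27l, a p53-responsive copy of Rps27, held 32.9% in WT against 47.96% and 35.4% with Tet2 vector and 39.87% and 39.96% with oridonin. Of the transcript of Rps27, 1.35% of stretches of 50 bases occur in no other gene and 99% are shared with Rps27rt, so the split between those genes is uncertain.

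Rps27rt measured 44.7 CPM in the WT heart, 81.1 and 57.1 in the vector pair and 41.3 and 34.1 in the oridonin pair. Both vector libraries lay above the rest, and oridonin against vector was -0.86 (SE 0.24, limma unadjusted p = 0.0113, adjusted p = 0.9999), or -0.60 without Tet2 vector 1. Rps27 itself measured 70.2 CPM in WT, 55.0 and 96.9 under Tet2 vector, and 69.2 and 65.1 under oridonin. In Tet2 vector 1, where Rps27rt was highest, Rps27 was lowest.

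Members with little and with much unique sequence had medians of the same sign. For the 19 with under 20% unique stretches, the vector to WT median was 0.40, with 19 above 0 (50.4% of all genes). For the 54 between 20% and 80% it was 0.33, with 50 above 0, and for the 12 at 80% or more it was 0.38, with 11 above 0. Against vector, oridonin medians in the same order were -0.27, -0.24 and -0.23. With Tet2 vector 1 left out they were 0.56, 0.55 and 0.53 against WT, and -0.45, -0.40 and -0.36 for oridonin against vector.

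Per coding kilobase, the mean level of the 76 tested ribosomal proteins with a coding length had a median of 376 CPM, with quartiles at 282 and 450. Rpl41, the shortest of the proteins, was the highest at 1366 CPM per coding kilobase, followed by Rplp1 at 928 and Rps24 at 738. The divisor is the coding length alone, so a long noncoding part of the transcript can raise this value. Coding bases were 138 of 509 in the transcript of Rpl41, 342 of 499 for Rplp1 and 399 of 1613 for Rps24. Rpl36al (0.479), Rpl39l (0.744), Rpl24 (1.08), Rps10 (1.87) and Rpl13a (13.9) were the lowest of all members classed as ribosomal proteins or paralogues, whether tested or not. Rpl13a, Rpl24, Rpl36al and Rps10 are also the 4 members with exons that overlap another annotated gene on the same strand. Whether the overlap set their level was not tested.

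**Figure D4:**
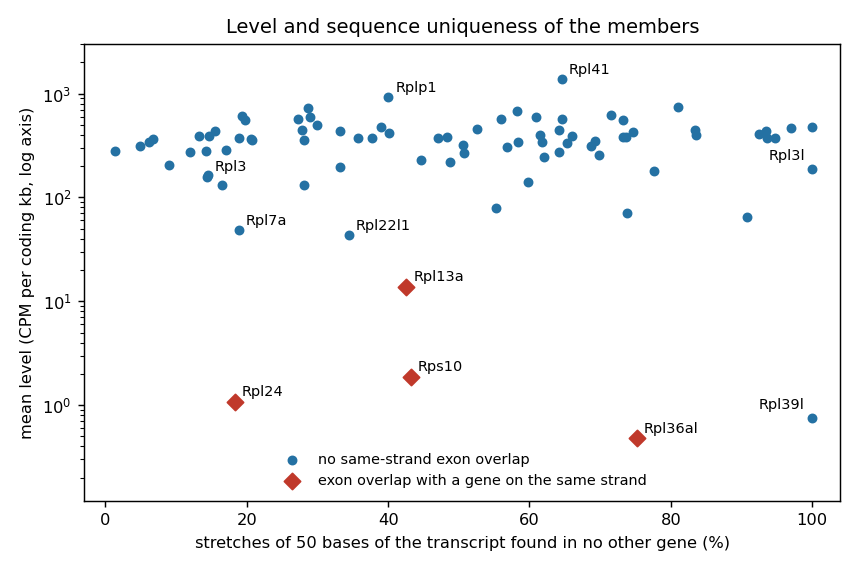
Mean level over the 5 libraries (CPM per coding kilobase, log axis) against the share of the transcript's stretches of 50 bases that occur in no other gene (percent, x axis), 1 point per ribosomal protein or paralogue. Diamonds mark the 4 members with exons overlapping a gene on the same strand, at 0.479 to 13.9 CPM per coding kilobase.

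Neighbouring steps of ribosome making and translation had medians near or below 0, apart from elongation factors. Of 49 ribosome biogenesis factors, 24 were above 0 in Tet2 vector against WT, the median was -0.005, and 1 (Rrp12, needed for export of pre-ribosomes) was lower at an unadjusted p under 0.05. The 15 genes of the RNA polymerase I machinery, which transcribes ribosomal RNA, had a median of -0.15. The 37 initiation factors had a median of -0.11 with 3 lower, and the 24 genes of mTORC1 and TOP mRNA control -0.15 with 4 lower. Of all genes, 4.53% were lower at an unadjusted p under 0.05, and 50.4% were above 0. The 10 elongation factors had a median of 0.26, with 6 above 0. Without Tet2 vector 1 these medians were, in the order given, -0.04, -0.09, -0.09, -0.15 and 0.23. With Tet2 vector 2 left out instead they were 0.05, -0.06, -0.11, -0.15 and 0.11.

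Eef1a1, the elongation factor that delivers aminoacyl-tRNA and whose mRNA also has a TOP start, measured 972 CPM in the WT heart, 1272 and 1243 in the vector pair and 945 and 867 in the oridonin pair. The vector pair stood above the other 3. Rack1, a 40S protein outside the symbol rule, measured 251 CPM in WT, 322 and 375 under Tet2 vector, and 330 and 281 under oridonin. Fau, which encodes the 40S protein eS30, measured 135 CPM in WT against 127 and 206 with Tet2 vector and 153 and 114 with oridonin.

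Among other large assemblies, the 78 mitochondrial ribosomal protein genes had a vector to WT median of 0.24, with 69 above 0, and an oridonin to vector median of -0.03. The 90 nuclear respiratory chain genes had medians of 0.13 and -0.03. The pseudogene rows dropped by the rule (37 past the filter) had medians of 0.52 and -0.34, with 36 above 0 and 32 below 0. Of all genes, 50.4% were above 0 in vector against WT and 59.8% below 0 in oridonin against vector. With Tet2 vector 1 left out the medians were 0.38 and -0.15 for mitochondrial ribosomal proteins, 0.30 and -0.16 for respiratory chain genes, and 0.75 and -0.50 for pseudogene rows. With Tet2 vector 2 left out instead, the medians against WT were 0.14, -0.03 and 0.35 in that order. Reads that match both a gene and its pseudogene can be counted to either.

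**Figure D5:**
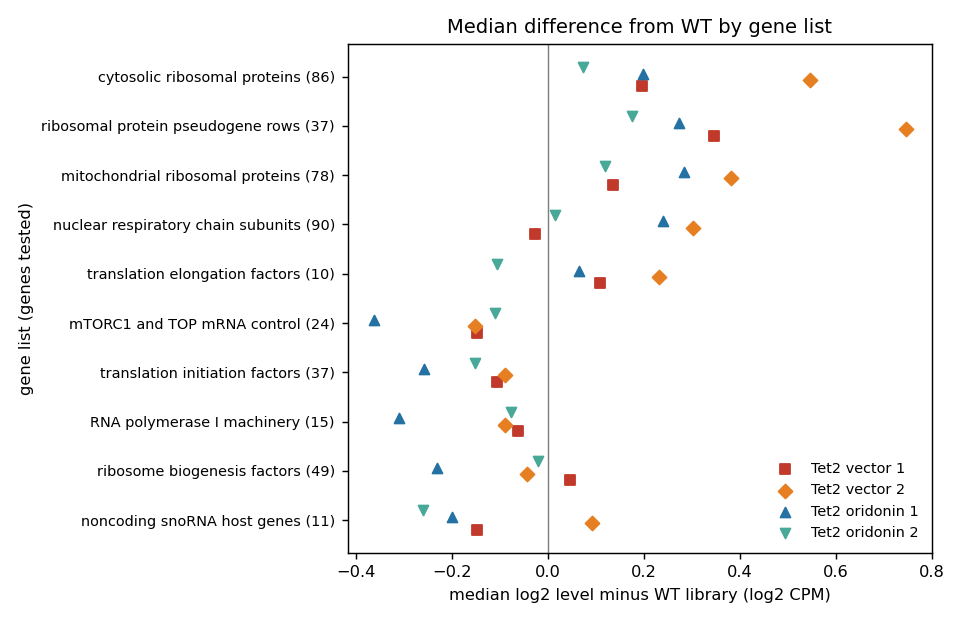
Median log2 CPM minus the WT library (x axis) for each gene list (y axis, number of genes tested in brackets), 1 symbol per Tet2 library. Cytosolic ribosomal proteins, their pseudogene rows and mitochondrial ribosomal proteins have all 4 symbols above 0 with Tet2 vector 2 farthest right, while initiation factors, mTORC1 control and RNA polymerase I genes have all 4 below 0.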

How the data were processed

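Poly-A RNA from hearts was made into NEBNext Ultra libraries, per the labels' protocols. The genome build was mm10, according to the submitters' processing notes. An aligner, a counter, an annotation and a strand setting were not given in the sources used here, so opposite-strand overlaps cannot be told apart. The authors deposited log2 values for 17818 genes in 5 columns, with 0 columns left without a sample. From the values, each is log2 of the count plus 0.5 scaled to CPM, and each Tet2 column is 75% its own and 25% the other replicate. The mix was undone (1.5 times own minus 0.5 times other), after which at least 99.92% of genes gave whole counts within 0.01. The WT column, also a mix (33.5% whole), was used as deposited, so its counts are approximate. A floor of 3 counts is 0.193 to 0.206 CPM.

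Limma 3.58.1 (R 4.3.3, trend, robust) was fitted to the unmixed log2 values of 12734 genes in all 5 libraries, with group as the only term and 2 residual degrees of freedom. P-values were adjusted by Benjamini-Hochberg over all genes at an FDR of 0.05. The fit was tested on simulated data. Members, lists and tests were chosen with earlier results of these data known. Named members were set by a list of family representatives, the 5 smallest p per direction and comparison, extremes per coding kilobase and the largest replicate differences. Genes singled out for overlaps or order were named after their values were seen. Transcripts were compared in GENCODE M21 (GRCm38) by stretches of 50 bases, 88 of 90 members matching. Alternatives were unmixed against deposited values, scaling, filters, pseudocount, voom, robust fitting, a replicate block and leaving out each library.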

Additional observations from a re-analysis of the deposited data

How the results depend on the processing

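The member medians kept their sign in every alternative run, and 0 members passed the FDR in each, apart from the following. With deposited values, whose mix shrinks the replicate spread, 32 members passed for Tet2 vector over WT, 1 for oridonin over vector and 2 for oridonin over WT, where all genes gave 18.2%, 0.597% and 7.82%. Leaving out 1 library gave medians of 0.20 to 0.55, -0.41 to -0.07 and 0.07 to 0.20 in those comparisons. A fit without 1 Tet2 library has 1 residual degree of freedom, so only the medians are given for it. In Tet2 vector against WT, 21 members were higher at an unadjusted p under 0.05 with a total that leaves out the mitochondrial genome (7.33% of all genes). They were 6 with median scaling (5.11%). That total moved the median of all genes from 0.005 to 0.10 in Tet2 vector against WT and from -0.06 to 0.05 in oridonin against WT.

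Same-numbered Tet2 replicates deviated in opposite ways (correlation -0.30 over all genes). Each group gives only 1 replicate difference, so whether the numbers pair samples cannot be decided from this. With the replicate block the medians were 0.33, -0.25 and 0.10, 0 members passed the FDR, and members higher at an unadjusted p under 0.05 against WT went from 11 to 3 (2.73% of all genes). Rpl21 in Tet2 vector against WT was -0.14 with the block, and in oridonin against WT Rpl3l was -0.0127 and Rps13 -0.0365. A crossed block, chosen after seeing the data, called 3, 1 and 0 members, where all genes gave 3.39%, 0.346% and 1.45%, and with it Rpl3l was -0.0624 and Rps13 -0.0494 in oridonin against WT. Rpl3l in Tet2 vector against WT was 0.10 without Tet2 vector 1 and -0.50 without Tet2 vector 2. The causes were not tested. Every comparison with WT rests on 1 WT library, whose deposited column is a mix that was not undone.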
